A study of Mus musculus with 9 samples.

Results

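Interleukins are secreted signals that immune, epithelial and other cells use to control inflammation, and each acts through a receptor built from 1 or more membrane chains. The genes described here are the interleukins, their receptor chains and their soluble or decoy antagonists, taken as every protein-coding row whose symbol starts with Il and a digit. There were 53 such genes among 22587 rows, 16212 of them protein coding, and 52 of the 53 passed the filter on low counts, as did 21287 genes in all. None of the 52 passed an adjusted p of 0.05 by limma-voom in any comparison of groups, and neither did any other of the 21287 genes. With 3 libraries a group, this does not show that levels were equal. Il4, Il6, Il10, Il13 and Il17a were not among the rows analysed. The levels below, from whole eyeballs, show which members a mouse eye held and how far they varied between libraries.

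Members of the interleukin-1 family are known as early signals of epithelial damage. Interleukin-1 alpha and interleukin-33 are stored in barrier epithelia and released on injury, while interleukin-1 beta and interleukin-18 are cut by caspase-1 before release. Most other interleukin receptors pass their signal to JAK kinases and STAT factors, the receptors of interleukin-17 signal through the adaptor encoded by Traf3ip2, and those of the interleukin-1 family signal through MyD88. In dry eye, interleukin-1, interleukin-6 and interleukin-17 are commonly measured as signs of ocular surface inflammation.

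All mice were female, of the albino BALB/C strain and wild type, and the labels give 15 mice divided among 3 groups at 6 weeks of age. The CON group was not injected and drank water. The DES group was injected intraperitoneally with scopolamine, a muscarinic receptor blocker that reduces tear secretion, and drank water. The T.chuii group received the same injections and, by mouth, Tetraselmis chuii, a green microalga, at 300 mg/kg. Treatment ran for 2 weeks, tissue age was postnatal day 56, and each group had 3 libraries. No group was injected without the drug, so injection and drug cannot be told apart. Whether each library is a different animal is not stated in the labels, and the p-values therefore measure only how far libraries vary, which may be technical. DES against CON asks what the dry eye model changed, and T.chuii against DES asks what the alga changed in that model. DES libraries enter both of those comparisons, and CON libraries also enter T.chuii against CON.

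Library totals ran from 39.1 to 64.6 M reads. Cornea and retina were present in every library: Krt12, the corneal keratin, lay between 3997 and 33862 reads per M reads (CPM), and 17 rod photoreceptor markers together held 1.15% to 5.66% of reads. The 3 libraries CON 2, DES 1 and T.chuii 1, 1 of each group, stood apart, with 2.41 to 3.68 reads of 14 corneal epithelium markers per read of 17 rod markers, against 0.303 to 0.789 in the other 6. Lens markers, of which 8 of 13 were found, held 0.00257% to 0.00585% of reads in CON, 0.0241% to 3.76% in DES and 1.01% to 5.45% in T.chuii. Lymphocytes left little trace: 6 of 15 T and NK cell markers were found and together held 0.000202% to 0.000352% of reads, and the 1 B cell marker found of 7 held at most 9.76e-05%. In whole eyeballs, fewer cells of a type and less RNA per cell cannot be told apart.

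Many members lie beside each other in the genome. On chromosome 2 of mm10 (GRCm38.p6), Il1f8, Il1f9, Il1f6, Il1f5 and Il1rn span 198 kb, from 24153172 to 24351491. RefSeq gives Il1f8, Il1f9, Il1f6 and Il1f5 as the genes of interleukin-36 beta, gamma and alpha and of the interleukin-36 receptor antagonist, and Il1rn encodes the interleukin-1 receptor antagonist. Il1a and Il1b lie on the same chromosome, between 129299609 and 129371164. The receptor genes Il1r2, Il1r1, Il1rl2, Il1rl1 and Il18r1 span 416 kb of chromosome 1, from 40084692 to 40500854. Il17re and Il17rc are neighbours on chromosome 6, between 113458699 and 113483163. Il1a overlaps Gm14023, Il1b overlaps Il1bos, Il18 overlaps Bco2 and Tex12, Il33 overlaps Gm41832 and Il11ra1 overlaps Ccl27a. Whether counting used strand is unknown from these sources, and reads of such pairs may have been mixed.

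The promoters of the chromosome 2 cluster are printed because its ligands and antagonists are neighbours, and that of Il22ra1 because it had the highest ratio of corneal-rich to other libraries among the members higher in all 3. Each line gives 250 bases before an annotated start from the RefSeq promoter table of GRCm38.p6, on the gene's strand. Capitals mark an AP-1 motif, spelled TGANTCA, or a STAT motif, spelled TTCNNNGAA, searched on both strands; the letters of these 2 motifs do not overlap here. Il1f6 was not in that table.
Il1f8 chr2:24152922-24153171 (+): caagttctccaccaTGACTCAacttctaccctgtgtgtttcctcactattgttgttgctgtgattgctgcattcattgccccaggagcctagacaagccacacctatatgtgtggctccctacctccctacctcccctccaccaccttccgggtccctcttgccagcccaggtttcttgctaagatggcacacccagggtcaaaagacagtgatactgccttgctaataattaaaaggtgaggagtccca
Il1f9 chr2:24186226-24186475 (+): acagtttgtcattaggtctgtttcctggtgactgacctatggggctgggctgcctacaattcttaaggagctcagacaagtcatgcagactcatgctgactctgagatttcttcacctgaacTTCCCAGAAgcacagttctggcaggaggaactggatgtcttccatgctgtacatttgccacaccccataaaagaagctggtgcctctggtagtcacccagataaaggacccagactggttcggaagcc
Il1f5 chr2:24276704-24276953 (+): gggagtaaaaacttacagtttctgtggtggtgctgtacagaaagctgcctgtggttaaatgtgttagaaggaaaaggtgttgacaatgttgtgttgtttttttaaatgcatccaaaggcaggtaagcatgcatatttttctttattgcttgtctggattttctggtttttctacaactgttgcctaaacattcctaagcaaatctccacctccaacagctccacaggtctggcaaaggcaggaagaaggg
Il1rn chr2:24336610-24336859 (+): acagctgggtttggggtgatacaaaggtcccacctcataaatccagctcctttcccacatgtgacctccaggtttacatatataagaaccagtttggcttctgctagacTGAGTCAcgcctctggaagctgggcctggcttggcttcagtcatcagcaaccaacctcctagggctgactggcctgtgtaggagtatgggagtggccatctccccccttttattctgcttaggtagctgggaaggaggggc
Il22ra1 chr4:135727909-135728158 (+): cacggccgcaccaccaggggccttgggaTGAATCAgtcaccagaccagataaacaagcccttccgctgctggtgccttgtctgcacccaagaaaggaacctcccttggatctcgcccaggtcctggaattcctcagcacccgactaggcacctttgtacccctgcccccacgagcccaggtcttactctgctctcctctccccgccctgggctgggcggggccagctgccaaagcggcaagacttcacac
Counted from the annotated start, the AP-1 letters begin at position -236 of Il1f8, -141 of Il1rn and -222 of Il22ra1, and the STAT letters begin at position -128 of Il1f9. The printed window of Il1f5 holds neither, while that of another annotated start of Il1f5 has the STAT letters at -98. The windows of the other 2 annotated starts of Il1rn hold neither. Of the 53 members, 45 had at least 1 window and 59 windows in all. AP-1 letters were in 16.9% of those windows, from 10 members, and in 6.75% of the 32851 windows of all genes. STAT letters were in 10.2% of member windows, from 6 members, and in 7.02% of all windows. A match describes letters only and is neither a site nor a cause.

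Levels of different genes are compared on the deposited FPKM scale, which divides by transcript length. Over all 9 libraries, 7 members averaged at least 10 FPKM, 26 lay from 1 to 10 and 20 were below 1. The 7 were Il18 at 35.3 ± 9.79 FPKM (SD, n = 9), Il11ra1 at 34.9 ± 17.1 FPKM, Il33 at 27.0 ± 3.67 FPKM, Il10rb at 23.7 ± 4.95 FPKM, Il1a at 17.1 ± 8.32 FPKM, Il1f9 at 16.2 ± 8.86 FPKM and Il17rc at 14.1 ± 8.13 FPKM. Neighbours in that order differed by less than the SD of 1 or both. At the lower end stood Il21r at 0.0859 ± 0.0355 FPKM, Il1rl1 at 0.0736 ± 0.0403 FPKM and Il2ra at 0.0295 ± 0.0174 FPKM. Il2ra, the alpha chain of the interleukin-2 receptor, had 3 to 12 reads a library and was the 1 member that was not tested. Il4, Il6, Il10, Il13 and Il17a are not analysed here.

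**Figure D1:**
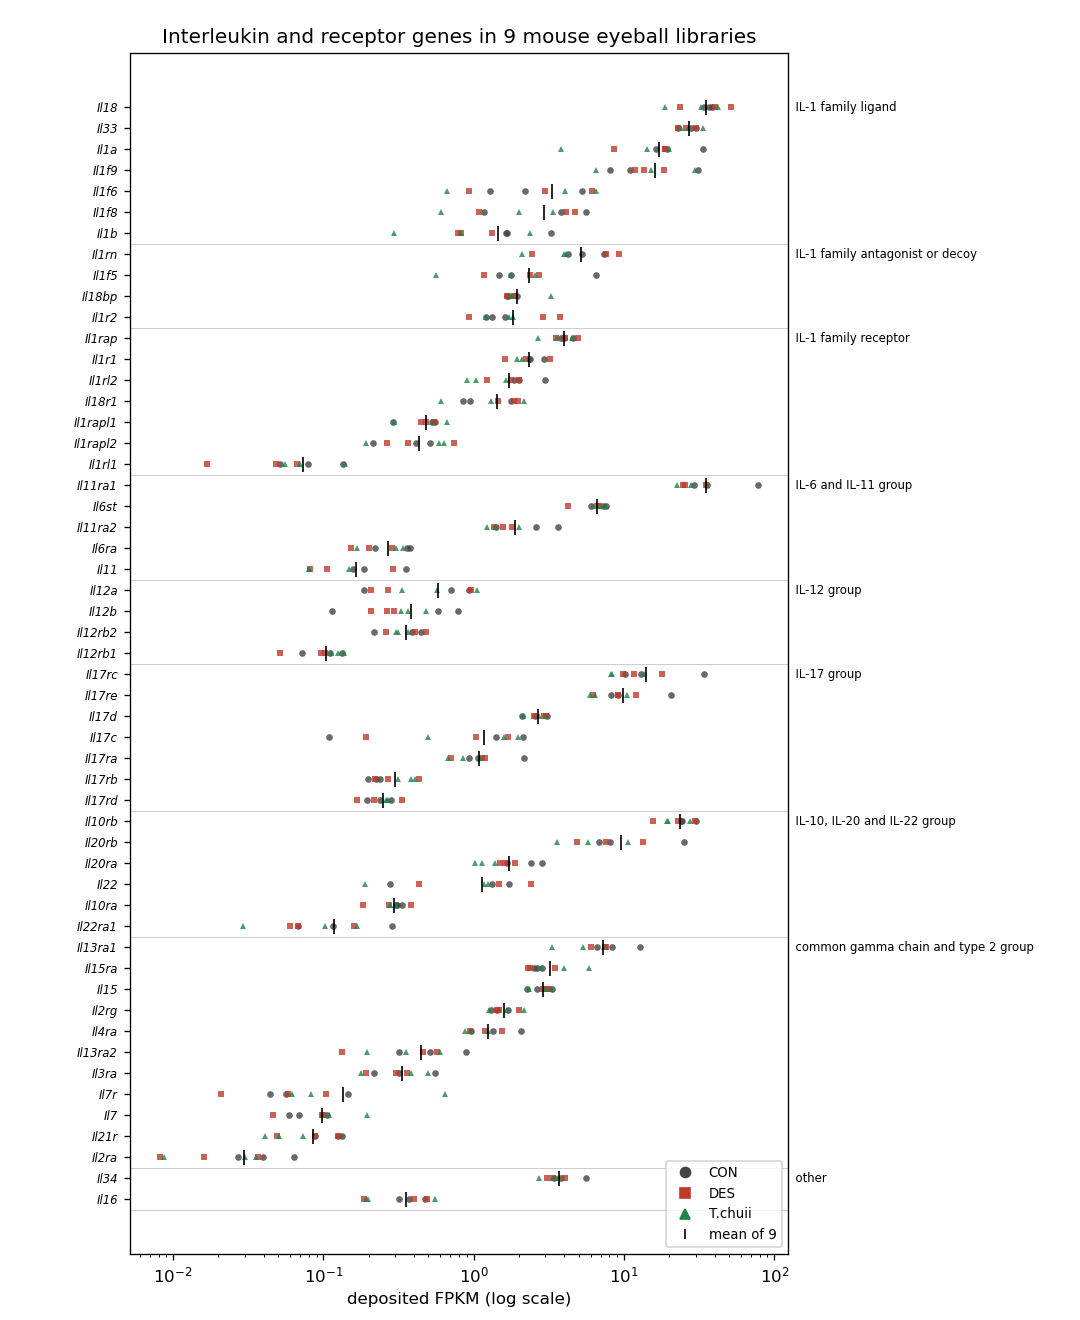
Deposited FPKM of all 53 interleukin and receptor genes (log scale) in the 9 libraries, grouped by role; circles are CON, squares DES, triangles T.chuii, and the vertical tick is the mean of 9. Il18, Il11ra1, Il33, Il10rb, Il1a, Il1f9 and Il17rc average at least 10 FPKM, and symbols of the 3 groups are intermixed along most rows.

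Among interleukin-1 family ligands, Il18, Il33, Il1a and Il1f9 were plentiful and Il1b was scarce. Which cells of the eyeball held these transcripts was not tested. Values per library are given as CPM, scaled by trimmed means and listed in the order of libraries 1, 2 and 3. Il33, which encodes a nuclear cytokine of barrier cells, had 68.0, 87.1 and 56.4 CPM in CON, 67.9, 60.3 and 90.9 CPM in DES, and 70.6, 74.4 and 83.9 CPM in T.chuii. It was the steadiest of the 7 ligands, and the groups overlapped: its log2 fold change, with a 95% interval from limma-voom, was 0.05 (95% interval -0.46 to 0.57) for DES against CON and 0.08 (95% interval -0.43 to 0.59) for T.chuii against DES. Il18, the ligand of the interleukin-18 receptor, had 43.4, 40.5 and 40.3 CPM in CON, 51.4, 25.2 and 70.6 CPM in DES, and 58.7, 24.0 and 38.4 CPM in T.chuii. The CON libraries lay close together while DES and T.chuii each spanned a wide range around them, with log2 fold changes (± SE here and below) of 0.11 ± 0.39 for DES against CON, -0.25 ± 0.39 for T.chuii against DES and -0.13 ± 0.39 for T.chuii against CON. Il1a, the ligand that acts from the cell surface or after release, had 31.2, 75.9 and 38.4 CPM in CON, 41.5, 15.7 and 44.2 CPM in DES, and 45.5, 8.70 and 27.6 CPM in T.chuii. Its highest library was CON 2 and its lowest T.chuii 2, 8.72 times apart, so the group means of 48.5 ± 24.0, 33.8 ± 15.7 and 27.3 ± 18.4 CPM (SD, n = 3) overlapped in range, and the changes were -0.58 ± 0.59 for DES against CON, -0.45 ± 0.61 for T.chuii against DES and -1.02 ± 0.60 for T.chuii against CON.

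Il1b, the ligand cut by caspase-1, was the 1 member whose DES and CON libraries did not overlap, a share of 1.92% beside 3.65% of all genes. It had 4.29, 2.75 and 2.23 CPM in CON, 2.09, 1.35 and 1.41 CPM in DES, and 3.75, 1.22 and 0.567 CPM in T.chuii, from 30 to 181 reads a library. All 3 DES libraries were below all 3 CON libraries, DES 1 and CON 3 lying close together. T.chuii 1 lay among the CON values and T.chuii 2 and 3 below all DES libraries. The log2 fold change of DES against CON was -0.89 ± 0.56, with a limma-voom adjusted p of 0.99996. Markers of macrophages and microglia, which make interleukin-1 beta, were all found (15 of 15) and held 0.0189% to 0.0228% of reads in CON, 0.0167% to 0.0178% in DES and 0.0178% to 0.0254% in T.chuii. Their mean was lower in DES than in CON for 14 of 15, and their part in the Il1b values was not tested.

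The interleukin-36 ligands Il1f6, Il1f8 and Il1f9 varied more between libraries of a group than between groups. Il1f9, made by keratinocytes, had 12.8, 58.3 and 17.8 CPM in CON, 25.2, 17.8 and 35.7 CPM in DES, and 57.2, 11.8 and 24.5 CPM in T.chuii. CON 2 and T.chuii 1 were the highest of the 9 and T.chuii 2 the lowest. Il1f6 had 1.87, 5.30 and 1.12 CPM in CON, 2.95, 0.758 and 6.40 CPM in DES, and 6.71, 0.654 and 3.54 CPM in T.chuii, and Il1f8 had 0.901, 5.03 and 2.95 CPM in CON, 3.61, 0.792 and 4.47 CPM in DES, and 3.10, 0.545 and 1.57 CPM in T.chuii. Both were lowest in T.chuii 2, and the highest library was 10.2 times the lowest for Il1f6 and 9.22 times for Il1f8. For DES against CON the log2 fold changes were 0.04 ± 0.63 for Il1f9, 0.05 ± 0.96 for Il1f6 and -0.11 ± 0.82 for Il1f8, each SE larger than its change. For T.chuii against DES they were 0.03 ± 0.63, 0.10 ± 0.96 and -0.70 ± 0.85 in the same order.

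The antagonists and decoys of these ligands each had a pattern of their own across libraries. Il1rn, the soluble blocker of the interleukin-1 receptor, had 17.6, 14.9 and 10.2 CPM in CON, 6.78, 21.1 and 22.1 CPM in DES, and 11.8, 5.65 and 9.78 CPM in T.chuii. DES 2 and DES 3 were the highest of all and DES 1 among the lowest, so the DES range enclosed that of CON. T.chuii against DES gave -0.75 ± 0.48, or -0.44 without DES 2, and T.chuii against CON -0.66 ± 0.48. Il1f5, the blocker of the interleukin-36 receptor, had 2.47, 12.8 and 3.04 CPM in CON, 5.25, 1.89 and 4.89 CPM in DES, and 5.15, 1.16 and 3.06 CPM in T.chuii. CON 2 exceeded every other library of Il1f5 by more than the range of those 8, and the changes were -0.38 ± 0.70 for DES against CON, -0.44 ± 0.74 for T.chuii against DES and -0.83 ± 0.72 for T.chuii against CON. Il18bp, which binds and neutralises interleukin-18, had 3.39, 3.50 and 2.97 CPM in CON, 3.33, 2.88 and 4.20 CPM in DES, and 6.15, 3.45 and 3.06 CPM in T.chuii; only T.chuii 1 lay apart, above the rest, and T.chuii against CON gave 0.29 ± 0.32. Without T.chuii 1 that value was -0.01. Il1r2, a decoy receptor for interleukin-1, ranged over 1.50 to 4.94 CPM with overlapping groups.

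**Figure D2:**
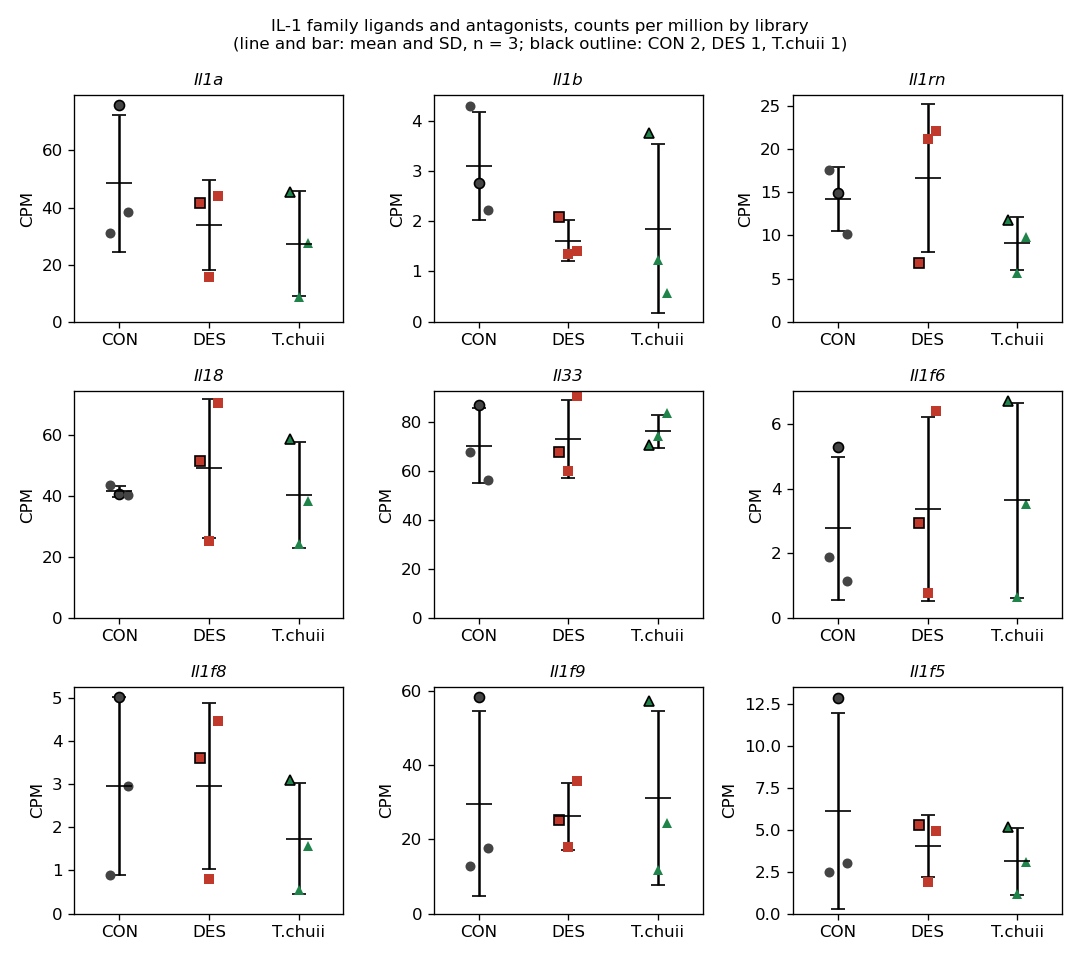
CPM (linear scale from 0) of 9 interleukin-1 family ligands and antagonists in each library, by group, with the group mean and SD (n = 3); a black outline marks CON 2, DES 1 and T.chuii 1. Il33 is nearly level across the libraries, the DES values of Il1b lie below those of CON, and outlined libraries hold the highest value of Il1a, Il1f6, Il1f8, Il1f9 and Il1f5.

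Receptors of the interleukin-1 family all averaged below 4 FPKM, under the levels of Il18, Il33, Il1a and Il1f9. Il1rap, the shared accessory chain, had 19.6, 18.5 and 16.5 CPM in CON, 16.2, 19.6 and 20.4 CPM in DES, and 12.9, 16.8 and 19.6 CPM in T.chuii. Il1r1, the signalling receptor of interleukin-1, had 11.3, 16.8 and 11.3 CPM in CON, 12.4, 14.8 and 9.61 CPM in DES, and 12.2, 13.1 and 9.74 CPM in T.chuii. Both stayed within a factor of 1.58 and 1.74 from lowest to highest library, and groups overlapped. Il1rl2, the interleukin-36 receptor, had 7.95, 13.9 and 7.45 CPM in CON, 8.08, 7.72 and 6.13 CPM in DES, and 7.76, 4.15 and 4.20 CPM in T.chuii. CON 2 was highest and T.chuii 2 and 3 lowest, but T.chuii 1 lay inside the CON range, and T.chuii against CON gave -0.88 ± 0.34. Il18r1, the interleukin-18 receptor, had 2.75, 4.17 and 1.73 CPM in CON, 3.61, 3.61 and 4.17 CPM in DES, and 5.08, 1.44 and 2.57 CPM in T.chuii. The DES libraries clustered near the top of the CON range, with a change of 0.48 ± 0.46, or 0.14 without CON 3. Il1rl1, the interleukin-33 receptor ST2, was rare, with 0.640, 0.275 and 0.419 CPM in CON, 0.401, 0.0843 and 0.304 CPM in DES, and 0.815, 0.415 and 0.303 CPM in T.chuii, or 5 to 35 reads. DES 2 was the lowest and T.chuii 1 the highest, and the changes were -0.92 ± 0.62 for DES against CON, 1.08 ± 0.62 for T.chuii against DES and 0.16 ± 0.59 for T.chuii against CON. Without DES 2 they were -0.23 for DES against CON and 0.39 for T.chuii against DES. Il1rapl1 and Il1rapl2, synaptic relatives that bind no interleukin-1, ranged over 3.12 to 6.15 CPM and 1.21 to 3.80 CPM.

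In the interleukin-6 and interleukin-11 group, the shared chain gp130 and the interleukin-11 receptor were abundant while Il11 and Il6ra were low. Il6st, which encodes gp130, had 38.2, 47.2 and 32.1 CPM in CON, 41.7, 33.0 and 27.3 CPM in DES, and 39.5, 45.9 and 37.0 CPM in T.chuii. Its range was narrow, within a factor of 1.73, and groups overlapped. Il11ra1, the interleukin-11 receptor, had 49.5, 157 and 61.6 CPM in CON, 68.6, 39.9 and 52.8 CPM in DES, and 73.1, 54.0 and 39.2 CPM in T.chuii. CON 2 held more than every other library by more than the spread of those 8, and DES against CON gave -0.57 ± 0.42, or -0.07 without CON 2. Its copy Il11ra2 had 3.65, 11.2 and 5.25 CPM in CON, 5.42, 3.39 and 5.02 CPM in DES, and 6.24, 3.62 and 3.69 CPM in T.chuii. The reference transcripts of both genes are 99.0% identical over 1299 bases, so how reads were divided between them is uncertain. Il6ra, the interleukin-6 binding chain, ranged over 0.567 to 1.41 CPM and overlapped between groups, its DES against CON change being -0.47 ± 0.44. Il11 had 0.712, 0.465 and 0.335 CPM in CON, 0.201, 0.556 and 0.276 CPM in DES, and 0.210, 0.196 and 0.321 CPM in T.chuii. Every T.chuii library of Il11 was below every CON library, with a change of -0.96 ± 0.48 from 9 to 33 reads a library, and DES against CON gave -0.56 ± 0.47, or -0.23 without DES 1.

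Genes of the interleukin-12 group, which drive interferon gamma responses, all averaged below 1 FPKM. Il12b, the shared p40 subunit, had 1.90, 0.327 and 1.43 CPM in CON, 0.582, 0.691 and 0.801 CPM in DES, and 1.07, 0.916 and 1.19 CPM in T.chuii. All 3 T.chuii libraries were above all 3 DES libraries, yet CON 1 and CON 3 were higher still and CON 2 was the lowest of the 9. T.chuii against DES gave 0.62 ± 0.58. Il12rb2, a chain of the interleukin-12 receptor, had 3.44, 2.26 and 3.96 CPM in CON, 4.17, 4.09 and 2.76 CPM in DES, and 3.35, 3.10 and 3.31 CPM in T.chuii, and DES against CON gave 0.22 ± 0.31. The value for Il12rb2 rested on CON 2, the lowest library, and was -0.02 without it. Il12rb1, its partner chain, had 0.664, 0.671 and 0.369 CPM in CON, 0.301, 0.506 and 0.607 CPM in DES, and 0.769, 0.654 and 0.548 CPM in T.chuii and gave 0.52 ± 0.41 for T.chuii against DES, or 0.23 without DES 1. Il12a, the p35 subunit, ranged over 0.293 to 1.44 CPM.

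Among the rows analysed, which lack any gene at 0 in a library, the interleukin-17 group was represented mainly by receptor chains. Il17rc, the partner of Il17ra in the receptor for interleukin-17A and F, had 22.9, 90.0 and 29.1 CPM in CON, 46.5, 24.5 and 27.4 CPM in DES, and 36.3, 21.0 and 18.8 CPM in T.chuii. Il17re, the receptor of interleukin-17C, had 21.1, 62.3 and 23.8 CPM in CON, 35.4, 22.4 and 19.7 CPM in DES, and 32.7, 17.6 and 16.9 CPM in T.chuii. Il17ra, the shared chain, had 4.13, 9.76 and 3.64 CPM in CON, 5.07, 4.38 and 3.34 CPM in DES, and 5.10, 3.75 and 2.65 CPM in T.chuii. All 3 chains were highest in CON 2, and for each the 3 libraries CON 2, DES 1 and T.chuii 1 lay above the other 6. For DES against CON the log2 fold changes were -0.32 ± 0.48 for Il17rc, -0.34 ± 0.43 for Il17re and -0.33 ± 0.41 for Il17ra. Il17rb, the interleukin-25 receptor, was low, with 0.403, 0.568 and 0.453 CPM in CON, 1.00, 0.421 and 0.662 CPM in DES, and 0.769, 0.873 and 0.832 CPM in T.chuii. Every T.chuii library of Il17rb was above every CON library, with a change of 0.79 ± 0.38 from 17 to 50 reads a library, and DES against CON gave 0.46 ± 0.39, or 0.14 without DES 1. Il17d, an interleukin-17 relative made outside the immune system, averaged 3.21 ± 0.348 CPM in CON, 3.74 ± 0.595 CPM in DES and 3.47 ± 0.560 CPM in T.chuii (SD, n = 3). Its groups overlapped, and DES against CON gave 0.21 ± 0.27, or 0.09 without DES 3. Il17c ranged over 0.0839 to 1.74 CPM and the receptor modulator Il17rd over 1.54 to 3.07 CPM.

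Among the rows analysed, receptor chains made up all of the interleukin-10, interleukin-20 and interleukin-22 group except Il22. Il10rb, which serves several of these receptors, had 43.8, 67.5 and 46.2 CPM in CON, 65.3, 42.7 and 35.9 CPM in DES, and 61.0, 45.4 and 37.1 CPM in T.chuii. Il20rb, a chain of the skin and epithelial receptor for interleukin-20, had 16.2, 70.3 and 19.5 CPM in CON, 36.8, 17.2 and 14.4 CPM in DES, and 30.4, 9.82 and 14.1 CPM in T.chuii. CON 2 was highest for both, and for Il20rb the lowest of the 3 corneal-rich libraries exceeded the highest of the rest by more than 10 CPM. Il20ra, the partner of Il20rb, had 3.39, 5.85 and 5.82 CPM in CON, 4.47, 3.44 and 3.84 CPM in DES, and 3.42, 2.38 and 2.42 CPM in T.chuii. For Il20ra, T.chuii 1, 2 and 3 were all below every DES library, T.chuii 1 by little, and T.chuii 1 was just above CON 1. Its change was -0.53 ± 0.32 against DES and -0.87 ± 0.31 against CON. Il22ra1, the interleukin-22 binding chain, ranged over 0.196 to 1.89 CPM and Il10ra over 0.773 to 1.48 CPM. Il22 ranged over 0.256 to 3.09 CPM, and its reference transcript is 97.4% identical over 1110 bases to that of the copy Iltifb, which leaves its reads uncertain.

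In the common gamma chain and type 2 group, Il13ra1 had the highest level. Il13ra1, a chain of the receptor for interleukin-4 and interleukin-13, had 29.8, 54.2 and 24.1 CPM in CON, 31.7, 25.5 and 26.4 CPM in DES, and 31.6, 13.5 and 19.6 CPM in T.chuii. T.chuii 2 and 3 were the lowest, and the changes were -0.29 ± 0.35 for DES against CON, -0.45 ± 0.36 for T.chuii against DES and -0.75 ± 0.36 for T.chuii against CON. T.chuii against DES gave -0.16 without T.chuii 2, and T.chuii against CON gave -0.40 without CON 2. Il4ra, its partner, had 6.64, 12.1 and 4.81 CPM in CON, 6.90, 7.31 and 5.77 CPM in DES, and 7.36, 5.54 and 4.44 CPM in T.chuii, with CON 2 highest. The decoy chain Il13ra2 had 0.735, 1.33 and 1.90 CPM in CON, 0.341, 0.843 and 1.52 CPM in DES, and 1.58, 0.502 and 0.813 CPM in T.chuii, and DES against CON gave -0.73 ± 0.60, or -0.16 without DES 1. Il15, which supports NK and memory T cells, had 3.68, 3.86 and 4.60 CPM in CON, 5.09, 3.86 and 5.13 CPM in DES, and 5.66, 3.77 and 4.20 CPM in T.chuii. Il15ra, which presents it, had 5.05, 6.84 and 5.03 CPM in CON, 8.44, 4.74 and 5.27 CPM in DES, and 13.6, 8.53 and 5.43 CPM in T.chuii. Il15 overlapped between groups with a DES against CON change of 0.20 ± 0.28 (0.13 without DES 1), whereas Il15ra was highest in T.chuii 1 and then T.chuii 2, giving 0.51 ± 0.37 against DES and 0.60 ± 0.37 against CON. Without T.chuii 1 these were 0.19 and 0.27.

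Il7, a growth factor for lymphocytes made by epithelium and stroma, had 0.237, 0.224 and 0.352 CPM in CON, 0.361, 0.320 and 0.193 CPM in DES, and 0.769, 0.371 and 0.359 CPM in T.chuii. Every T.chuii library of Il7 was above every CON library, CON 3 and T.chuii 3 lying close together, and the change was 0.79 ± 0.44 against CON and 0.68 ± 0.44 against DES, from 7 to 33 reads. Without T.chuii 1 these were 0.44 and 0.34. Il7r, its receptor, had 0.451, 0.207 and 0.151 CPM in CON, 0.0802, 0.320 and 0.221 CPM in DES, and 2.42, 0.305 and 0.208 CPM in T.chuii. The T.chuii mean of Il7r rested on T.chuii 1, with 104 reads: its change was 1.50 ± 0.90 against DES and 1.13 ± 0.87 against CON with that library, and 0.45 and 0.09 without it. T.chuii 1 also had the highest share of adipocyte markers (3 of 6 found, 0.142% of reads, against at most 0.0338% elsewhere) and of skeletal muscle markers (12 of 12 found, 1.64%, against at most 0.853%), the highest share of macrophage and microglia markers (0.0254%, against at most 0.0228%), and the lowest share of T and NK cell markers (0.000202%). Ptprc, which marks all leukocytes, was also highest there, at 3.98 CPM against at most 2.91. The part of these cells in the Il7r value was not tested. Il21r, the interleukin-21 receptor of lymphocytes, had 0.308, 0.430 and 0.486 CPM in CON, 0.521, 0.303 and 0.221 CPM in DES, and 0.256, 0.153 and 0.170 CPM in T.chuii. Every T.chuii library of Il21r was below every CON library, and T.chuii against CON gave -1.06 ± 0.43 and T.chuii against DES -0.78 ± 0.44, or -0.46 without DES 1, from 7 to 29 reads a library. Il2rg, the common gamma chain, ranged over 2.24 to 4.22 CPM. Il3ra, counted with this group although its receptor does not use that chain, ranged over 0.397 to 1.21 CPM. Of the members outside these groups, Il34, a ligand of the CSF1 receptor that maintains microglia, had 5.79, 11.4 and 6.49 CPM in CON, 8.06, 5.04 and 7.18 CPM in DES, and 5.71, 7.20 and 5.94 CPM in T.chuii, with CON 2 highest, and Il16 ranged over 1.08 to 2.56 CPM.

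Comparing scopolamine-injected with uninjected mice, no interleukin gene passed the test. Of 52 members tested, 0 passed an adjusted p of 0.05 by limma-voom, the share of all genes being 0%. At an unadjusted p under 0.05 there were 0 members, against 1.1% of all genes. Groups did not overlap for 1 member (Il1b), against 3.65% of all genes. Means were lower in DES for 31 members and higher for 21, a lower share of 59.6% beside 52.4% of all genes, and the median log2 fold change was -0.15, beside -0.02 over all genes tested. All 5 genes of the interleukin-6 and interleukin-11 group had lower means, from -0.57 to -0.20, and so did 5 of 6 in the interleukin-10, interleukin-20 and interleukin-22 group. Higher means were held by 4 of 7 interleukin-1 family ligands, 3 of 4 antagonists or decoys and 4 of 7 receptors. The same held for 4 of 7 members of the interleukin-17 group. These sets are small and were not tested. The lower members with the smallest p-values were Il1b, Il1rl1, Il11ra1, Il13ra2 and Il11, and the higher ones Il17rb, Il18r1, Il17d, Il12rb2 and Il15, with the values given above. The smallest limma-voom adjusted p of any member was 0.99996. The median rested on CON 2, since it was 0.08 without that library.

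Comparing fed with unfed injected mice, no member passed the test. In T.chuii against DES, 0 of 52 members and 0% of all genes passed the adjusted threshold. An unadjusted p under 0.05 was reached by 0 members and 1.09% of all genes. Groups did not overlap for 2 members, Il12b higher and Il20ra lower in T.chuii, against 4.8% of all genes. Means were lower in T.chuii for 29 members and higher for 23, a lower share of 55.8% beside 54.9% of all genes, with a median of -0.06 beside -0.03 over all genes. The lower members with the smallest p-values were Il21r, Il20ra, Il1rn, Il1rl2 and Il13ra1, and the higher ones Il1rl1, Il7r, Il7, Il15ra and Il12rb1.

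In T.chuii against CON, which differ in injection, drug and feed, 0 of 52 members and 0% of all genes passed the adjusted threshold, and the smallest limma-voom adjusted p of a member was 0.986. An unadjusted p under 0.05 was reached by 3 members (Il20ra, Il1rl2 and Il21r, all lower), a share of 5.77% beside 4.28% of all genes. Groups did not overlap for 4 members (Il11 and Il21r lower, Il17rb and Il7 higher in T.chuii), a share of 7.69% beside 8.42% of all genes. Means were lower for 30 members and higher for 22, a lower share of 57.7% beside 55.4% of all genes, with a median of -0.13 beside -0.04. All 6 genes of the interleukin-10, interleukin-20 and interleukin-22 group had lower means, from -0.87 to -0.01, and all 4 of the interleukin-12 group had higher means, from 0.06 to 0.30. Each other group of more than 2 members held higher and lower means, and these small sets were not tested. The lower members with the smallest p-values were Il20ra, Il1rl2, Il21r, Il13ra1 and Il11, and the higher ones Il17rb, Il7, Il15ra, Il7r and Il18bp. These counts stand near the shares over all genes. Limma-trend on log2(FPKM + 0.1) also gave 0 members past the adjusted threshold in each of the 3 comparisons, with 0, 0 and 3 members at an unadjusted p under 0.05 in the order DES against CON, T.chuii against DES and T.chuii against CON. The same libraries serve as controls in more than 1 comparison, so the signs of a member in the 3 comparisons are not independent.

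**Figure D3:**
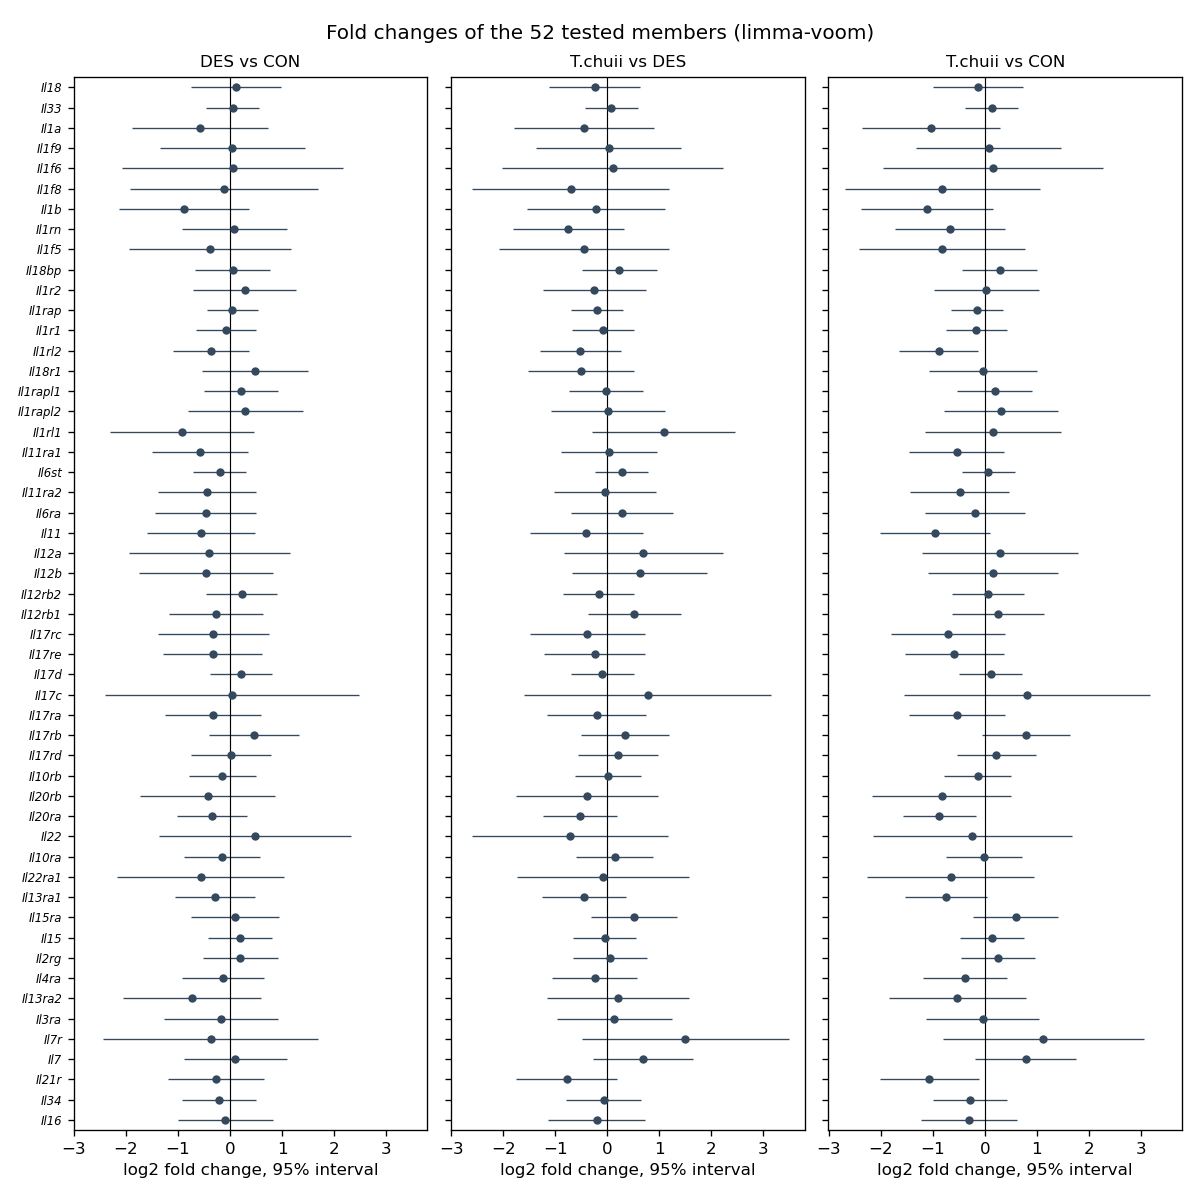
Log2 fold change (point) and 95% interval (line) from limma-voom for the 52 tested members, 1 panel for each comparison. Most intervals include 0; those of Il1rl2, Il20ra and Il21r in T.chuii against CON do not, and none of the 52 passed the adjusted threshold.

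Levels of some members, and of some other genes, went with the ratio of corneal to rod reads in a library. The 3 libraries with the highest ratio had corneal shares of 4.23% to 7.46% and rod shares of 1.15% to 2.03%, against 1.28% to 3.50% and 4.21% to 5.66% in the other 6, so high corneal and low rod content cannot be told apart. Of the 52, 13 were higher in each of CON 2, DES 1 and T.chuii 1 than in any of the other 6 libraries, a share of 25% beside 13.1% of all genes: Il10ra, Il10rb, Il11ra1, Il11ra2, Il13ra1, Il16, Il17ra, Il17rc, Il17rd, Il17re, Il1f5, Il20rb and Il22ra1. All but Il16 and Il1f5 are receptor chains, as are most members of the family. The ratio of the mean of those 3 libraries to the mean of the other 6 was 3.08 for Il22ra1, 3.02 for Il20rb, 2.82 for Il1f5, 2.41 for Il17rc and 2.15 for Il17re, and 1.30 for Il10ra. Il1rapl1, Il1rapl2 and Il22 were lower in all 3, a share of 5.77% beside 13.8% of all genes, with ratios of 0.699, 0.463 and 0.216. On the deposited FPKM scale 6 were higher (Il10rb, Il17rc, Il17re, Il1f5, Il20rb and Il22ra1), a share of 11.5% beside 7.02% of all genes. With Il17d added, 4 were lower on that scale, a share of 7.69% beside 15.8%. The grouping of these libraries comes from the data, not from the labels, and these counts are a description with no test.

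The ligands Il1a, Il1f9, Il33 and Il18 were not among the 13. Il33 had a ratio of 1.04 and Il18 of 1.24, while Il1a and Il1f9 had ratios of 1.96 and 2.34 but overlapped, since DES 3 was as high as some of the 3. CON 2 held the highest level of 22 members and T.chuii 2 the lowest of 15. The same counts were not taken over all genes, so they cannot be read as a trait of this family. All members together held 902 reads per M in CON 2 and 460 in T.chuii 2, with 504 to 636 in the other 7 libraries.

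The corneal epithelium markers had shares that overlapped between the groups, with the highest in CON 2. All 14 were found, none at 0, and they held 2.91% to 7.46% of reads in CON, 2.39% to 4.87% in DES and 1.28% to 4.23% in T.chuii. All 14 had lower means in each comparison, with medians of -0.41 for DES against CON, -0.55 for T.chuii against DES and -0.84 for T.chuii against CON, and none passed the adjusted threshold. Of the 13 members above, means were lower for 12 in DES against CON, 9 in T.chuii against DES and 12 in T.chuii against CON. Il17rd was the exception in both comparisons with CON. Over all genes tested, the lower shares were 52.4%, 54.9% and 55.4% in the same order. The 13 were chosen from these same libraries, and most were highest in CON 2. Lower means against CON therefore partly follow from the choice, and a cause was not tested. With the log2 ratio of corneal to rod reads as a covariate, 0 members were called and the median over the 52 was -0.05, -0.04 and -0.06 in the same order of comparisons, against -0.15, -0.06 and -0.13 without it. With CON 2, DES 1 and T.chuii 1 left out together, that median was -0.03, -0.14 and -0.16.

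**Figure D4:**
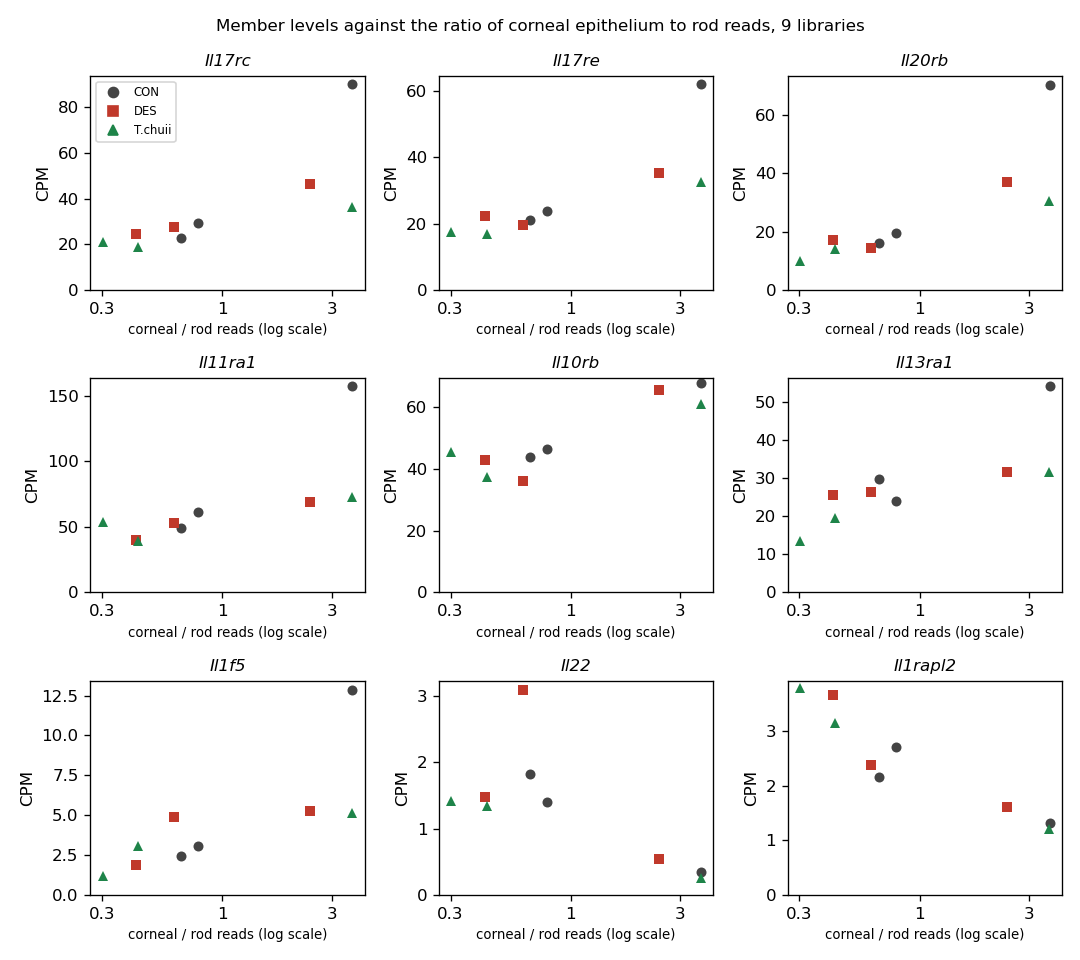
CPM of 9 members (linear scale from 0) against the ratio of corneal epithelium marker reads to rod marker reads (log scale) in the 9 libraries. CON 2, DES 1 and T.chuii 1, at ratios from 2.41 to 3.68, lie above the other 6 libraries for Il17rc, Il17re, Il20rb, Il11ra1, Il10rb, Il13ra1 and Il1f5 and below them for Il22 and Il1rapl2.

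Genes that act below these receptors or process their ligands gave no call either: 0 genes of 5 lists passed the adjusted threshold in any comparison. The counts of lower means below stand beside 52.4%, 54.9% and 55.4% of all genes tested, with medians of -0.02, -0.03 and -0.04, in DES against CON, T.chuii against DES and T.chuii against CON. The lists were not tested as sets, and their counts were not repeated without CON 2. Of the MyD88 and JAK-STAT genes with the smallest p, CON 2 was the highest library for Tollip, Irak1, Irak2, Myd88, Tyk2, Stat3 and Stat6. It was not the highest for Nfkbia, Socs3 and Ptpn11. Among 23 genes of MyD88, IRAK and NF-kB signalling, means were lower for 20 in DES against CON (median -0.14), 14 in T.chuii against DES (-0.08) and 20 in T.chuii against CON (-0.27). Tollip, which restrains this pathway, had 92.3, 131 and 81.9 CPM in CON, 78.8, 94.6 and 69.8 CPM in DES, and 63.1, 64.4 and 83.6 CPM in T.chuii, a change of -0.51 ± 0.24 for T.chuii against CON. Irak2, a kinase of the same pathway, gave -0.86 ± 0.45 for T.chuii against DES, whereas Nfkbia of the same list gave 0.52 ± 0.30. Among 20 genes of JAK-STAT signalling, 16, 13 and 17 had lower means in the same order of comparisons, with medians of -0.21, -0.15 and -0.32. Stat6, which acts below the receptors for interleukin-4 and interleukin-13, had 51.7, 104 and 34.3 CPM in CON, 66.1, 40.2 and 35.6 CPM in DES, and 43.7, 24.7 and 28.9 CPM in T.chuii, highest in CON 2 as Il13ra1 and Il4ra were. Its change for T.chuii against CON was -0.86 ± 0.41, and that of Socs3, a feedback inhibitor, was -0.79 ± 0.38. For T.chuii against DES, Ptpn11 of the same list gave 0.34 ± 0.21 and Socs3 gave -0.58 ± 0.39.

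Among 16 interleukin-17 adaptors and target genes, 9, 10 and 12 had lower means in DES against CON, T.chuii against DES and T.chuii against CON. Mmp3, a matrix protease, had 158, 221 and 197 CPM in CON, 87.2, 56.7 and 162 CPM in DES, and 129, 77.7 and 116 CPM in T.chuii. Every T.chuii library of Mmp3 was below every CON library, DES 3 lay inside the CON range, and the changes were -1.02 ± 0.36 for DES and -0.85 ± 0.37 for T.chuii against CON. Traf3ip2, the adaptor of the interleukin-17 receptors, gave -1.14 ± 0.47 for T.chuii against CON, with CON 3 at 24.0 CPM inside the T.chuii range of 13.2 to 37.8. The chemokine Ccl20 gave -2.16 ± 0.93 for T.chuii against DES from 0.221, 2.11 and 0.773 CPM in DES and 0.489, 0.131 and 0.0567 in T.chuii. Csf3, the neutrophil growth factor, had 0.261, 0.0861 and 0.0839 CPM in CON and 0.201, 0.977 and 0.718 in DES, a change of 2.03 ± 0.76 with every library below 1 CPM. Among 16 tested partners of gp130 and the common chains, 13, 8 and 13 had lower means. Lif, a ligand of the gp130 family, gave -1.06 ± 0.45 for T.chuii against CON. For T.chuii against DES, Lif gave -0.68 ± 0.46 and Csf2rb2 of the same list gave 0.80 ± 0.54. Csf2rb2 was rare, with 0.181, 0.152 and 0.138 CPM in DES and 0.489, 0.349 and 0.132 in T.chuii. Of 9 tested genes that process interleukin-1 and interleukin-18, 4, 5 and 3 had lower means. Casp1, the caspase that cuts both ligands, had 3.32, 2.91 and 4.68 CPM in CON and 2.09, 8.34 and 6.40 in DES, where DES 1 was the lowest and DES 2 and 3 the highest of the 6. For DES against CON the change of Casp1 was 0.43 ± 0.48, and that of Casp4 was 0.64 ± 0.57, though DES 1 was the lowest library of Casp4, at 0.802 CPM.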

How the data were processed

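RNA from whole mouse eyeballs was sequenced in 9 libraries with a strand-specific mRNA kit, according to the labels' protocols. The submitters' processing notes name the build mm10, StringTie 2.1.3b, HISAT2 2.1.0, Bowtie2 2.3.4.1, Trimmomatic 0.38 and FastQC 0.11.7; their settings and the counting step are not given in the sources used here. Per the file headers, each deposited table gives the number of reads (count) and FPKM of a gene. Both were taken from the last cells of a row, because the transcript field spans a varying number of cells. The lowest count was 1, so a gene at 0 in any library is not analysed here.

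Genes were kept with the equivalent of 10 reads at median library size in 3 libraries and 15 reads in total. Scaling of CPM used trimmed means of M-values, with factors from 0.899 to 1.12. The test was limma-voom on counts (limma 3.58.1, R 4.3.3), 1 fit of 3 group means over 9 libraries, 6 residual degrees of freedom, two-sided, with Benjamini-Hochberg adjustment over 21287 genes at 0.05. The precision is limited by 3 libraries a group.

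Groups are those of the sample titles. The members, gene lists and tests were chosen with earlier results of these data known. Members named with values were the 5 higher and 5 lower with the smallest p in each comparison, those averaging at least 5 CPM, and genes often studied in dry eye; others whose groups did not overlap were named after their values were seen. Of each pathway list the genes named came from the 2 with the smallest p. Alternatives were other scaling, no count filter, limma-trend on log2 FPKM, quality weights, left-out libraries, a fit of only the 2 groups compared, the log2 ratio of corneal to rod reads as a covariate and a replicate block. Deviations from group means of same-numbered libraries by title correlated at 0.56, 0.34 and 0.17 between DES and T.chuii, -0.30, -0.24 and 0.23 between CON and DES, and -0.30, -0.37 and 0.29 between CON and T.chuii. The file headers number most libraries otherwise than the titles. Positions, promoters and synonyms are from RefSeq tables of GRCm38.p6, and transcripts from GENCODE M21. Python 3.11.15, pandas 2.3.3, Biopython 1.88 and matplotlib 3.10.9 were used.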

Additional observations from a re-analysis of the deposited data

How the results depend on the processing

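In all 3 comparisons 0 of 52 members passed an adjusted p of 0.05 under each of 18 alternatives, which included each left-out library; the smallest limma adjusted p of a member was 0.999, 0.805 and 0.196 for DES against CON, T.chuii against DES and T.chuii against CON. The most members at an unadjusted p under 0.05 in any alternative was 6, 5 and 8. Of 540 log2 fold changes of named members under alternatives, 5 took the other sign, from 4 of the 30 named. Leaving out 1 library shrank 22 of the 30 by over 1.5 times or turned their sign. With CON 2, DES 1 and T.chuii 1 left out together, Il12rb2 was -0.11 for DES against CON, and Il7r was -0.12 for T.chuii against DES and -6.767e-05 for T.chuii against CON. Leaving out 1 library at a time gave -0.0196 (without CON 2) to 0.40 for Il12rb2 in DES against CON and -0.0119 (without T.chuii 1) to 0.49 for Il18bp in T.chuii against CON. The median of members for DES against CON was 0.08 without CON 2 and 0.02 with sample quality weights, and with the corneal to rod ratio as a covariate it was -0.05, against -0.15; the causes were not tested. The count of members higher in the 3 corneal-rich libraries was 6 on deposited FPKM, against 13 on CPM; this alternative, and the others for that count, were chosen after seeing the data. With the replicate block on title numbers, whose 3 pairs all deviated together for DES with T.chuii but not for the other comparisons, 0 members were called, the medians were -0.16, -0.06 and -0.13, and no call changed; DES 2 correlated best with T.chuii 3, not with T.chuii 2. Count models with edgeR and DESeq2 were not run, because the irregular rows could not be checked as counts by column. Depth limits the rarest members: 14 averaged under 1 CPM.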
